A study of Mus musculus with 6 samples.

Results

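The metallothionein genes Mt1 and Mt2, together with Mtf1, the gene of the metal-sensing factor that controls them, were followed in RNA sequencing of cultured mouse microglia. These 3 of the 41079 genes in the deposited tables were taken by their gene symbols and were detected in every library. The 6 libraries came from primary microglia of C57Bl/6N mice aged 1 to 3 days, shaken off mixed glial cultures that had been fed L-929 conditioned medium. The brains of several pups were pooled in a culture flask, and the relation of flasks to libraries is not given in the sources used here. The 3 control cultures were kept in serum-free DMEM/F12. The 3 optimized cultures had the same medium with TGFbeta, IL34 and CX3CL1 of human sequence at 100 ng/mL each, and, by the study's description of its recommended medium, cholesterol, insulin-transferrin-selenium and wells coated with collagen IV, which the sample labels do not name. Gentamicin was part of both media, and cells of both groups attached briefly in medium with serum. No library received a single supplement, so the contributions of the cytokines, the lipid, insulin, transferrin, selenium and the coating cannot be told apart. Metal concentrations in the medium or in the cells were not analysed here.

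Metallothioneins are small cysteine-rich proteins that bind zinc and copper and can also take up cadmium and react with oxidants. When free zinc rises, the zinc finger protein MTF1 enters the nucleus and binds metal response elements, short motifs in the promoters of Mt1, Mt2 and the zinc exporter gene Slc30a1. Mt1 and Mt2 are expressed in most tissues, Mt3 mainly in brain, and Mt4 in stratified epithelium. In the brain, Mt1 and Mt2 are best known as products of astrocytes and, after injury, also of reactive microglia and macrophages. Glucocorticoids, oxidants and cytokines that act through STAT3 are other known inducers of both genes.

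Mt1 lies on chromosome 8 from 94905710 to 94906955 on the plus strand of GRCm39, the build used by the authors. Mt2 lies upstream of it, from 94898819 to 94900207 on the same strand, and 5502 bases separate the end of Mt2 from the start of Mt1. Mt3 and Mt4 are their neighbours, so that the whole cluster from the start of Mt4 to the end of Mt1 spans 43131 bases. Mtf1 lies on chromosome 4 from 124695897 to 124743593, also on the plus strand. Its exons share 761 bases with exons of 1110065P20Rik on the opposite strand, a gene with 124 to 249 counts per library against a mean of 676.5 for Mtf1.

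The 250 bases before the annotated start of Mt1, Mt2 and Slc30a1, the best known targets of MTF1, are shown with their matches to its motif. Whether MTF1 acts through these matches was not tested. They are RefSeq sequences on GRCm38.p6, an older build, written 5′ to 3′ on the strand of the gene. The intervals are chr8:94178839-94179088 for Mt1, chr8:94172368-94172617 for Mt2 and chr1:191906531-191906780 for Slc30a1, all on the plus strand. Capitals mark the 7-base core of the metal response element, taken as TGCACNC or TGCGCNC on either strand.
Mt1: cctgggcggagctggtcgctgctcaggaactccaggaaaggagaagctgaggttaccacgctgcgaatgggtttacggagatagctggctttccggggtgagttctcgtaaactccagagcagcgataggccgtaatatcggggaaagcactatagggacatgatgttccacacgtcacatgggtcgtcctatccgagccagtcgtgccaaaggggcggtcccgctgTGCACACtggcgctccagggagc
Mt2: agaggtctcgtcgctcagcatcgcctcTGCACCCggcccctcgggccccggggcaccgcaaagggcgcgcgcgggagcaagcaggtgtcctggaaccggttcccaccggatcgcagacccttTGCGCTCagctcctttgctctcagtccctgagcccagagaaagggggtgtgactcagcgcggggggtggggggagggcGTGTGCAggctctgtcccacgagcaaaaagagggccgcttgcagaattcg
Slc30a1: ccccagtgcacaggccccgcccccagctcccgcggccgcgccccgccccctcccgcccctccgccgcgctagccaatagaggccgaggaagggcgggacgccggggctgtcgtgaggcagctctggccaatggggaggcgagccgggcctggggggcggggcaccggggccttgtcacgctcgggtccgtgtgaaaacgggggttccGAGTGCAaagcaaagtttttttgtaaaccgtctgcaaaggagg

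Positions are those of the first motif base as printed, with -1 the base just before the start. The search covered these 250 bases and the first 50 bases of the transcript. Mt2 held 4 cores, 3 of them upstream at -223, -128 and -50 and 1 at position 5 of the transcript. Mt1 held 3, of which 1 was upstream at -23 and the others, TGCACTC and TGCGCTC, began at positions 3 and 21 of the annotated transcript. Slc30a1 held 2, at -43 and at position 31. Among 32544 distinct windows of the same 300 bases, 25.9% held at least 1 such core, 7.17% at least 2, 1.99% at least 3 and 0.52% at least 4. The window of Mt3 held 1 core, and those of Mtf1 and of the zinc importer Slc39a10 held none. A match is a description of the letters in the window, and the starts are those of the annotation, not starts measured in these cells. If the start of Mt1 used in cells lies further downstream, its cores at positions 3 and 21 would be upstream too, which was not tested.

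The count totals ranged from 20628148 to 27261839 per library, and 14618 genes had enough counts to be tested. Values are given as CPM, library-scaled counts that were corrected with TMM factors, and, for comparisons of level between genes, as the deposited FPKM. An error after ± is the SD over the 3 libraries of a group. Between optimized and control cultures 29.8% of the tested genes passed an adjusted p-value of 0.05 by edgeR's quasi-likelihood test, 14.7% higher and 15.2% lower, and in 43.9% the libraries of the groups did not overlap. The microglial label was checked on Cx3cr1, Csf1r, Aif1, Itgam, P2ry12 and Tmem119, which were detected in every library of both groups. Cx3cr1, Itgam, P2ry12 and Tmem119 were higher in optimized cultures, at log2 fold changes from 0.82 for Itgam to 3.94 for Tmem119, and Csf1r (-0.39) and Aif1 (-0.45) were lower. Astrocyte markers, which matter here because astrocytes express metallothioneins, summed to 38.3 to 40.0 CPM in control and 26.2 to 31.2 CPM in optimized libraries. Gfap was at 4.18 and 4.68 CPM on average, and Aldh1l1, at a log2 fold change of -1.83, was the only one of the 8 tested astrocyte markers past the threshold. Oligodendrocyte markers summed to 135 to 151 CPM in control and 164 to 202 CPM in optimized libraries, with Mbp higher at 0.34, and neuron markers to 3.07 to 4.72 CPM and 5.30 to 6.34 CPM, with Nefl higher at 2.30. Fibroblast markers summed to 147 CPM in optimized replicate 3 and to 28.6 to 45.7 CPM in the other libraries. Border macrophage markers summed to 468 to 515 CPM in control and 242 to 349 CPM in optimized libraries. Of them, Mrc1 was lower at -2.40 and Pf4 higher at 0.53. Oligodendrocyte precursor and pericyte markers summed to 30.7 to 43.1 CPM and 438 to 625 CPM, with Cspg4 higher at 4.04. Endothelial markers summed to 77.5 to 93.1 CPM and 270 to 347 CPM, with Flt1 higher at 1.85. Pdgfra, Pdgfrb and Pecam1 did not pass. The part of other cells in the metallothionein levels was not tested.

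None of Mt1, Mt2 and Mtf1 passed edgeR's quasi-likelihood test, against 29.8% of all tested genes, and their unadjusted p-values in this test were 0.32, 0.36 and 0.12. DESeq2 and limma called 0 of the 3 as well. Mt1 was the most abundant metallothionein transcript in both kinds of culture. Control libraries held 995, 1014 and 1255 of its reads, optimized libraries 556, 1260 and 651 (replicates 1, 2 and 3, as throughout). Scaled to library size, the control values were 43.5, 41.4 and 45.9 CPM, and the optimized values 26.3, 53.6 and 31.5 CPM. The control libraries lay close together, while optimized replicates 1 and 3 lay below all of them and optimized replicate 2 above all of them, so the groups overlapped. Group means were 43.6 ± 2.29 CPM for control and 37.2 ± 14.5 CPM for optimized libraries. On the log2 scale the difference was -0.23 ± 0.22 (fold change with its standard error, adjusted p = 0.49 by edgeR's quasi-likelihood test), with a 95% interval from -0.72 to 0.26. In bulk RNA, fewer expressing cells and less RNA per cell cannot be told apart.

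**Figure D1:**
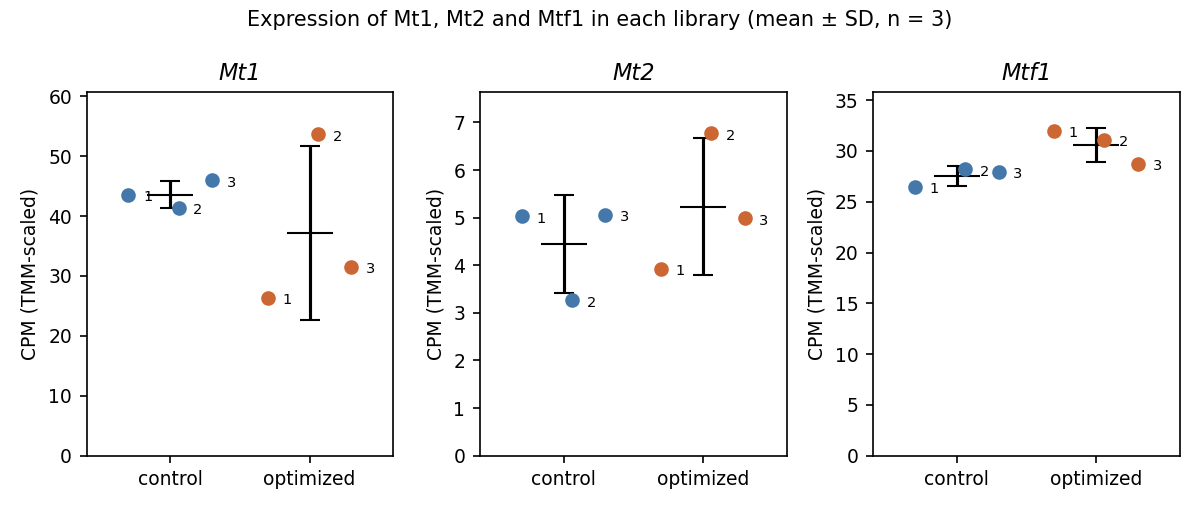
Expression of Mt1, Mt2 and Mtf1 in CPM (vertical axis, from 0) in the control and optimized libraries, with each point a library labelled by its replicate number and the bars the mean ± SD of 3. Optimized replicate 2 is the highest library for Mt1, at 53.6 CPM, and for Mt2, at 6.77 CPM, whereas for Mtf1 all 3 optimized libraries lie slightly above the control libraries.

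Whether Mt1 passed the test turned on optimized replicate 2. Without it the log2 fold change of Mt1 was -0.60 (standard error 0.11, adjusted p = 0.0021 by the same edgeR test), which is past the threshold. Without optimized replicate 1 it was -0.03. Short genes as a group also stood high in optimized replicate 2. The shortest 10% of genes stood at a median of 0.18 on the log2 scale there, relative to the mean of all 6 libraries, against -0.20 in optimized replicate 1 and 0.0084 in optimized replicate 3. The length behind the deposited FPKM of Mt1 is at the 11.9 percentile of the tested genes, that of Mt2 at the 3.53 percentile, whereas that of Mtf1 is at the 84.3 percentile. For Mt1 this length is about 1258 bases, against 549 in the spliced transcript. The length trend below used the longer value, and the spliced length was not tested. With a smooth trend on gene length removed from each library, Mt1 kept a log2 fold change of -0.23 over all libraries, with a standard error of 0.16. With that trend removed and optimized replicate 2 left out, a setting added after these values had been seen, it was -0.51 (standard error 0.088, adjusted p = 0.00069 by edgeR's quasi-likelihood test).

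For Mt2, control libraries held 115, 80 and 138 counts, optimized libraries 83, 159 and 103. The control values were thus 5.03, 3.26 and 5.05 CPM, the optimized values 3.93, 6.77 and 4.98 CPM. Control replicate 2 was the lowest library and optimized replicate 2 the highest. Between them, optimized replicates 1 and 3 lay below control replicates 1 and 3, optimized replicate 3 by little. Control libraries averaged 4.45 ± 1.03 CPM, optimized ones 5.23 ± 1.44 CPM. The fitted change was 0.24 on the log2 scale (standard error 0.24, adjusted p = 0.52 by edgeR's quasi-likelihood test), with a 95% interval from -0.31 to 0.78. Without optimized replicate 2 it was -0.0085, so the direction of Mt2 was not fixed by these libraries.

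The metallothioneins were ordered by level as Mt1, Mt2, Mt3 and Mt4 in both groups. Per length, Mt1 had a mean of 35.2 FPKM in control and 27.0 FPKM in optimized cultures, against 8.10 and 8.61 FPKM for Mt2. These means put Mt1 at rank 1657 and 1907 of the 14618 tested genes and Mt2 at rank 5684 and 5138. The lowest Mt1 library, at 20.0 FPKM, stood above the highest Mt2 library, at 10.7 FPKM. The length behind the deposited Mt1 values was about 1258 bases, close to the whole gene, whereas its spliced transcript has 549 bases, so that its FPKM is lower than the spliced length would give. For Mt2 the length behind the values was about 556 bases.

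Mt3, the form typical of brain, was near the floor of detection, with 13, 17 and 17 counts in control libraries, 8, 19 and 14 in optimized ones, and averages of 0.63 and 0.62 CPM. The log2 fold change was -0.0088 (standard error 0.39, adjusted p = 0.99 by edgeR's quasi-likelihood test). Mt4 had 0 counts in all 6 libraries. An observed count of 0 still allows an expected count of up to about 3 in a library.

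The sum of Mt1 and Mt2 came to 48.5, 44.6 and 51.0 CPM in control libraries, against 30.3, 60.4 and 36.5 CPM in optimized ones. The order followed that of Mt1, with group means of 48.05 ± 3.21 and 42.38 ± 15.9 CPM. The log2 difference was -0.24, with p = 0.5 in a two-sided exact permutation test over libraries.

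In the ratio of Mt1 to Mt2, the scaling of a library cancels and the high values of optimized replicate 2 largely do so too. The ratio of the counts was 8.65, 12.7 and 9.09 in control and 6.70, 7.93 and 6.32 in optimized libraries. All 3 optimized libraries lay below all 3 control libraries. The mean ratio was 10.1 ± 2.21 for control and 6.98 ± 0.84 for optimized libraries. The log2 difference was -0.52, and the two-sided exact permutation test gave p = 0.1, the smallest value that 3 libraries against 3 allow. The 95% exact binomial intervals cover counting error only. They ran from 7.13 to 10.6 in control replicate 1 and from 7.62 to 10.9 in control replicate 3. Both overlapped the intervals of all 3 optimized libraries, at 5.31 to 8.54, 6.72 to 9.41 and 5.13 to 7.86. The interval of control replicate 2, at 10.1 to 16.1, overlapped none of these. Leaving out 1 library at a time, the log2 difference of the Mt1 to Mt2 ratio ran from -0.63 to -0.35. With 3 libraries against 3 this test could not reach 0.05.

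**Figure D2:**
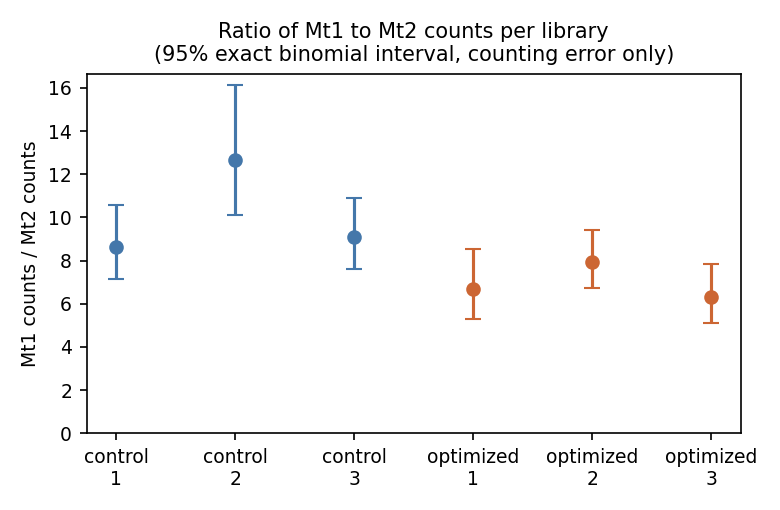
Ratio of Mt1 counts to Mt2 counts (vertical axis, from 0) in each of the 3 control and 3 optimized libraries, with bars for the 95% exact binomial interval, which covers counting error only. The optimized libraries, at 6.32 to 7.93, lie below the control libraries, at 8.65 to 12.7. The intervals of control replicates 1 and 3 overlap those of all 3 optimized libraries, and that of control replicate 2 overlaps none of them.

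Mtf1 was expressed at a steady level in both groups and did not pass the test. Control libraries held 605, 691 and 764 counts, optimized libraries 675, 730 and 594. Scaled, they gave 26.5, 28.2 and 28.0 CPM for control, against 32.0, 31.1 and 28.7 CPM for optimized cultures. Each optimized library was above each control library, by little in the case of optimized replicate 3, and 21.4% of all tested genes showed that arrangement. The averages were 27.5 ± 0.94 and 30.6 ± 1.67 CPM. The fitted change was 0.15 on the log2 scale (standard error 0.09, adjusted p = 0.25 by edgeR's quasi-likelihood test), with a 95% interval from -0.05 to 0.35. In FPKM the libraries of Mtf1 overlapped, at 3.59, 3.84 and 3.57 in control and 3.99, 3.58 and 3.52 in optimized cultures, and scaled by library size without TMM factors the log2 fold change was 0.02.

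The members were also compared in how much they varied between cultures of a group. The coefficient of variation of Mt1 was 5.26% in control and 39.1% in optimized cultures, that of Mt2 23.1% and 27.5%, and that of Mtf1 3.43% and 5.45%. In the edgeR fit the coefficient of variation between replicates was 0.19 for Mt1, above that of 79.0% of the tested genes, and 0.20 for Mt2, above 81.4%. For Mtf1 it was 0.087, above only 9.8%. For Mt1 this rested on optimized replicate 2, without which its coefficient of variation was 12.6% over the other optimized libraries and the fitted value 0.090, above that of 23.2% of the genes. For Mt2 the fitted value without that library was 0.17, above that of 74.6%.

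**Figure D3:**
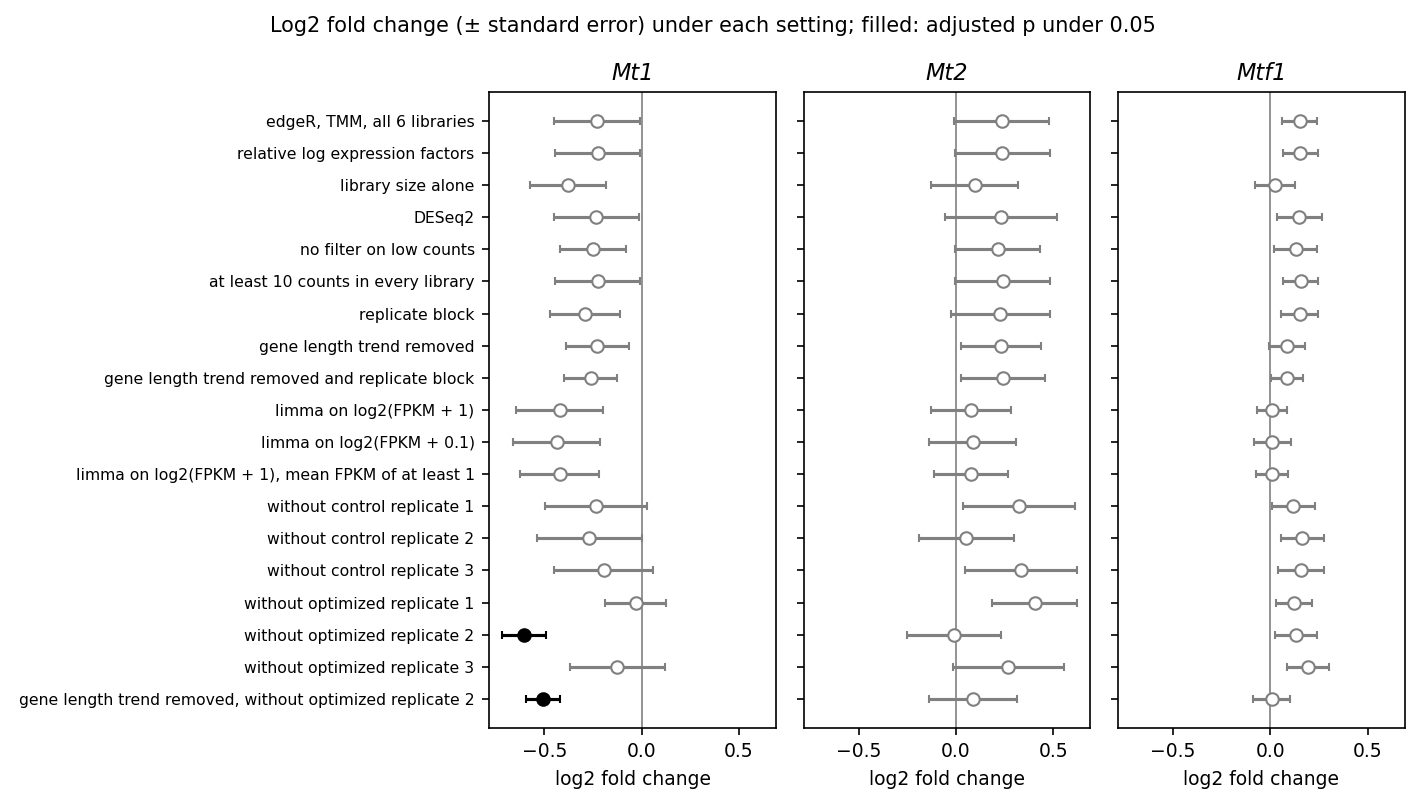
Log2 fold change between optimized and control cultures (horizontal axis, bars ± standard error) of Mt1, Mt2 and Mtf1 under each scaling, test, filter and set of libraries, with filled points for an adjusted p-value under 0.05. Mt1 is below 0 throughout, from -0.60 to -0.03, and is past the threshold only in the 2 fits without optimized replicate 2, while Mt2 and Mtf1 are past it in none.

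Over the 6 libraries the CPM of Mt1 and Mt2 on the log2 scale had a Pearson correlation of 0.53, and 0.80 after subtracting the group means. Mt1 and Mtf1 had correlations of -0.34 and 0.013, and Mt2 and Mtf1 of 0.10 and -0.32. These are descriptions over 6 libraries, which share their depth and their length trend. Among genes with a mean of at least 5 CPM, the patterns most like that of Mt1 were those of Mmab (0.98), Pias4 (0.98), Map2k3 (0.97), Ankrd54 (0.97) and the row listed as Mir5046 (0.97), which shares 59 exonic bases with Rps6ka4 on the same strand. For Mt2 they were Arhgap25 (0.98), Mark4 (0.98), Zcchc9 (0.97), Scnn1a (0.96) and Slc2a8 (0.96). For Mtf1 they were Arpp19 (0.99), Alkbh8 (0.97), Jkamp (0.97), Fam149b (0.97) and Tmem276 (0.96). No gene stood on the list of more than 1 member. With n = 6, high values are common, and 167 genes had a correlation above 0.9 with Mt1, 43 with Mt2 and 81 with Mtf1.

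Of the zinc transporter genes, Slc30a1 and Slc39a10, both known MTF1 targets, were lower in optimized cultures. Slc30a1 (ZnT1), the zinc exporter of the plasma membrane, was at 1162, 1558 and 1384 counts in control libraries, against 689, 667 and 523 in optimized ones. All optimized libraries lay below all control libraries. Control libraries averaged 55.0 ± 7.40 CPM and optimized ones 28.8 ± 3.68 CPM, with a log2 fold change at -0.93 (standard error 0.13, adjusted p = 0.00034 by edgeR's quasi-likelihood test). An antisense gene, 1700034H15Rik, shares 468 exonic bases with it and had 65 to 281 counts, and reads of the strands cannot be told apart here. Slc39a10 (ZIP10), a plasma membrane zinc importer that MTF1 is known to repress, averaged 46.7 ± 2.38 CPM in control libraries, and was lower, at 22.2 ± 2.51 CPM, in optimized ones. Control libraries held 1130, 1103 and 1247 counts and optimized ones 530, 490 and 427, without overlap, and the log2 fold change was -1.07 (standard error 0.10, adjusted p = 3.8e-05 by the same edgeR test). Both genes, an MTF1-induced exporter and an MTF1-repressed importer, were thus lower in the same libraries in which neither Mt1, Mt2 nor Mtf1 passed the test.

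Of the 10 zinc exporter genes of the Slc30 family, 6 were tested, of which 1 was higher, 2 were lower and 3 did not pass, with a median log2 fold change of -0.04 against 0.0079 over all tested genes. Of all tested genes 14.7% were higher and 15.2% lower. Beside Slc30a1, the exporter of the secretory pathway Slc30a5 was lower at -0.28 (adjusted p = 0.019 by edgeR), and lost the call without any 1 of the control libraries or without optimized replicate 3. Slc30a9, of mitochondria, was higher at 0.36 (adjusted p = 0.0077 by edgeR), and lost the call with library size alone (0.23) and in the limma fits on FPKM. Of the 14 Slc39 importer genes, 13 were tested, of which 4 were higher, 3 lower and 6 did not pass, with a median of 0.20, beside the same 14.7% and 15.2%. The higher ones were Slc39a2 (1.48), Slc39a4 (0.70), Slc39a13 (0.36) and Slc39a11 (0.35). The last 2 lost the call with library size alone and in the limma fits, Slc39a11 also when control replicate 1 or 2 or optimized replicate 3 was left out. Slc39a2 lost it without control replicate 1 or 3 and with limma on log2(FPKM + 0.1). Slc39a4, an importer of the plasma membrane, rose from 18.8 ± 1.99 to 30.7 ± 1.23 CPM. The lower ones were Slc39a1 (-0.38), Slc39a10 and Slc39a12 (-2.40), the last at 24 to 31 counts in control and 2 to 6 counts in optimized libraries. Slc39a2 had only 10 to 23 counts in control and 32 to 38 counts in optimized libraries, and it shares 500 exonic bases on the same strand with Mettl17, which had 302 to 374 counts.

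**Figure D4:**
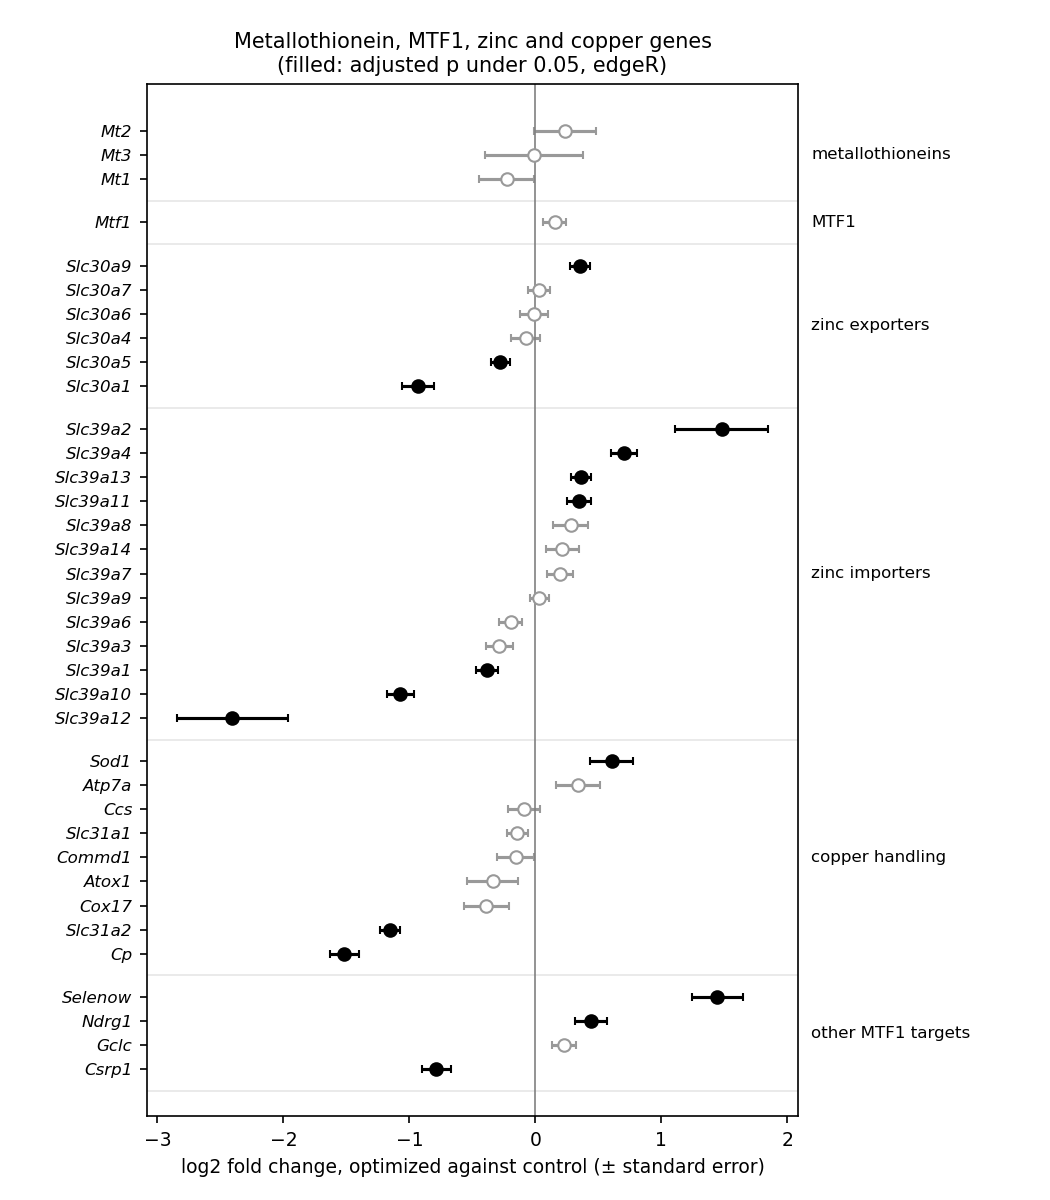
Log2 fold change between optimized and control cultures (horizontal axis, bars ± standard error) of the tested metallothionein, zinc transporter and copper genes and of known MTF1 targets, with filled points for an adjusted p-value under 0.05 by edgeR. Mt1, Mt2, Mt3 and Mtf1 lie near 0 with open points, while Slc30a1 (-0.93), Slc39a10 (-1.07), Slc31a2 (-1.15) and Cp (-1.52) lie clearly below 0.

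Metallothioneins also bind copper. Of 10 copper handling genes, 9 were tested, of which 1 was higher, 2 were lower and 6 did not pass, with a median log2 fold change of -0.16. These 3 of 9 are near the 29.8% called over all tested genes. Cp, which encodes the copper-carrying ferroxidase ceruloplasmin, was lower in optimized libraries (21.3 ± 2.69 CPM) than in control libraries (60.9 ± 5.22 CPM), by -1.52 on the log2 scale (standard error 0.11, adjusted p = 7.0e-06 by edgeR). Slc31a2 (CTR2), a copper transporter of endosomes and lysosomes, fell from 129 ± 4.37 to 57.8 ± 2.73 CPM, at -1.15 (adjusted p = 4.3e-06 by edgeR). Sod1, the copper and zinc superoxide dismutase, was higher at 0.60 (adjusted p = 0.024 by edgeR), and lost this call without control replicate 1 or 2, without optimized replicate 2 or 3 and in the limma fits. It shares 4217 exonic bases with Scaf4 on the opposite strand, which had 2166 to 3361 counts against a mean of 1855.2 for Sod1. The plasma membrane copper importer Slc31a1 and the efflux pump Atp7a did not pass, the latter at 0.34.

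Of 8 other genes known as MTF1 targets, 6 were tested, of which 2 were higher, 3 lower and 1 did not pass, with a median log2 fold change of -0.28, beside 14.7% higher and 15.2% lower over all tested genes. MTF1 is known to induce Slc30a1 and to repress Slc39a10, so these counts and the median pool targets of opposite expected direction. Slc30a1 and Slc39a10, described above, are 2 of the lower ones. Csrp1, which encodes a LIM domain protein, was the other, averaging 66.5 ± 2.86 CPM in control libraries against 38.6 ± 5.54 CPM in optimized ones (log2 fold change -0.79). Selenow, which encodes a small selenoprotein, rose from 22.4 ± 1.82 to 61.0 ± 19.5 CPM, at 1.44 (adjusted p = 0.00042 by edgeR). It was, like Mt1, highest in optimized replicate 2, with 42.1, 81.0 and 60.0 CPM in the optimized libraries, all above the 20.3 to 23.6 CPM of the control libraries. Ndrg1 was higher at 0.44 (adjusted p = 0.029 by edgeR). It lost the call with library size alone, with DESeq2, without the filter on low counts and in the limma fits. The same held without any 1 of the control libraries or without optimized replicate 2. Gclc did not pass at 0.23.

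The remaining lists hold genes that respond to the other known inducers of metallothioneins, and their counts stand beside 14.7% higher and 15.2% lower over all tested genes. Of 6 oxidant-induced genes, 5 were lower and 1 did not pass, with a median log2 fold change of -0.80. Srxn1, which encodes sulfiredoxin, fell from 202 ± 12.2 to 90.7 ± 11.4 CPM, at -1.15 (adjusted p = 2.7e-05 by edgeR), and Slc7a11, the cystine transporter subunit, was lower at -1.22, Nqo1 at -1.04, Gclm at -0.55 and Txnrd1 at -0.44. Nqo1 lost the call without control replicate 2 or 3. Hmox1, the inducible haem oxygenase, did not pass at -0.08. Of 8 glucocorticoid-induced genes, 4 were higher and 4 did not pass, with a median of 0.80. Sgk1, a kinase gene, rose from 115 ± 10.7 to 1251 ± 70.3 CPM, at 3.44 (adjusted p = 4.1e-08 by edgeR), followed by Fkbp5 at 1.57, Errfi1 at 1.04 and Ddit4 at 0.86, the last of which lost the call when control replicate 1 or 3 or optimized replicate 2 was left out. Tsc22d3 and Per1, which are also direct glucocorticoid receptor targets, were at -0.22 and -0.23 and did not pass. Of 8 genes of the STAT3 axis, 2 were higher, 4 lower and 2 did not pass, with a median of -0.21. The receptor genes Il6ra (-0.47) and Il6st (-0.50) and the target genes Bcl3 (-1.04) and Pim1 (-1.20) were lower. Il6st lost the call without control replicate 1 or 2 and with limma on log2(FPKM + 1) and log2(FPKM + 0.1). Stat3 itself was higher at 0.31. That call was lost with library size alone (0.18), in the limma fits, without any 1 of the control libraries and without optimized replicate 3. The target gene Socs3 was at 0.51 and just missed the threshold (adjusted p = 0.056 by edgeR), and passed it with DESeq2, without the filter on low counts and with the length trend removed. Lcn2 was called higher at 3.85, but it had 40.7 CPM in optimized replicate 1 and 1.49 and 0.92 CPM in the other optimized libraries. The call was lost without optimized replicate 1 and without any 1 of the control libraries. It was also lost with library size alone, with DESeq2 and in the limma fits.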

How the data were processed

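RNA of 3 control and 3 optimized microglia cultures was sequenced in paired-end mode. According to the submitters' processing notes and the study's methods, reads were mapped to mm39 (GRCm39) with HISAT2 and counted with featureCounts. The versions, the annotation and the strand setting are not given in the sources used here. The authors deposited unnormalized read counts of 41079 genes, and FPKM values of these genes in a separate table. Groups and replicate numbers came from the sample labels, and columns of other samples numbered 0.

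The main analysis of the counts used edgeR 4.0.16 under R 4.3.3. Low genes were removed by filterByExpr, and counts were scaled with TMM factors and tested with glmQLFit and glmQLFTest (Benjamini-Hochberg over 14618 genes, threshold 0.05). The standard error is the size of the log2 fold change divided by the square root of F. The common dispersion was 0.0164, a coefficient of variation of 0.13, and the totals of 20628148 to 27261839 leave genes under about 20 counts with large errors. The log2 ratio of Mt1 to Mt2 and the sum of both were compared by exact permutation over libraries. Alternatives were a replicate block, DESeq2 1.42.0, scaling by relative log expression factors or by library size alone, testing without the filter or with a minimum of 10 counts per library, a gene length trend removed with a spline of 5 degrees of freedom, each library left out, and limma 3.58.1 on log2(FPKM + 1), log2(FPKM + 0.1) and for a mean FPKM of at least 1, where adding a pseudocount understates changes of low genes. The fits were also run on simulated data with the same dispersion for every gene, near the common value. Mt1 and Mt2 had larger dispersions, at 0.036 and 0.041, so those runs do not cover their spread.

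The length behind an FPKM value was derived from the ratio of count to FPKM, with a scale set by genes with 1 transcript. Gene coordinates are those of GENCODE on GRCm39, and promoter windows those of RefSeq on GRCm38.p6. Named genes are the 3 members, genes of the lists, markers and, for each member, the 5 genes of highest correlation among those with at least 5 CPM and no predicted-gene symbol. A microglial marker of the fixed list is not reported here. Members and lists were chosen with earlier results of these data known. No libraries agreed within sampling noise, with chi-square per degree of freedom of at least 10.7 within groups. The study calls its replicates biological and independent, without naming the animals or flasks behind each library. Where nothing ties libraries to separate animals, p-values measure the spread between these cultures.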

Additional observations from a re-analysis of the deposited data

How the results depend on the processing

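Mt1 kept its direction under all settings run and passed the threshold only without optimized replicate 2, at -0.60 (adjusted p = 0.0021 by edgeR), and with the gene length trend removed as well, at -0.51, a fit added after seeing the data. Leaving out each library gave -0.60 to -0.030 for Mt1, -0.0085 to 0.41 for Mt2 and 0.12 to 0.20 for Mtf1. Mt2 turned to -0.0085 only without optimized replicate 2, and the cause was not tested. Zbtb16, a glucocorticoid-induced gene at 0.74 and not called with all libraries, ran from -2.28 without optimized replicate 1, where it was called lower (adjusted p = 0.016 by edgeR), to 1.32 without optimized replicate 2. Deviations of same-numbered control and optimized libraries correlated at 0.27, -0.012 and 0.18, replicate 2 not best with its own number, so the numbers were not taken to pair them. With the replicate block, Mt1 was at -0.29, Mt2 at 0.23 and Mtf1 at 0.15, none past the threshold, and the genes past the threshold numbered 4924 in place of 4360. With 1 library left out they numbered 3249 to 5234. With library size alone, the median of all genes was -0.12 and 32.3% of the called genes were higher, against 49.1% with TMM factors. With limma on log2(FPKM + 1), which used the deposited FPKM without TMM factors, the median was -0.087 and 33.1% of the called genes were higher. Of the 31 called pathway genes, limma on log2(FPKM + 1) called 22 and library size alone 24. Slc30a1, Slc39a10, Slc31a2, Cp, Csrp1, Selenow, Srxn1, Sgk1 and Fkbp5 were called in each setting. The 95% interval of Mt2, at 80 to 159 counts per library, ran from -0.31 to 0.78, and Mt3, at 8 to 19 counts, had a standard error of 0.39.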
